A study of Rattus norvegicus with 4 samples.

Results

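The genes described here are 35 genes of the endothelium, the cell layer that lines blood vessels and, in the liver, the sinusoids. They were chosen by name as markers, receptors, junction proteins, transcription factors and adhesion molecules of sinusoidal and vascular endothelial cells, and all 35 were found among the 31457 rows of the deposited table. Liver RNA of Lewis rats, of the RT1L allotype, was sequenced as 4 libraries with 1 library per group. One library is labelled a naive control, with no hepatectomy named, and is read here as liver without surgery. The other 3 came from rats whose liver had been resected in part (partial hepatectomy) and that were given, into a vein, either saline or cells, the cells being labelled ASCs-siRNC for one liver and ASCs-miR27b for the other. ASCs and siRNC are not spelled out in the labels and are read here as adipose-derived stem cells and a control RNA. The livers are called naive, saline, siRNC and miR-27b. Age, sex, the time between surgery and collection and the number of animals per library are not stated in the labels.

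Sinusoidal endothelial cells form a thin, fenestrated wall without a closed basement membrane, and they clear material from the blood through scavenger and lectin receptors. Endothelium is kept alive and made to sprout by vascular endothelial growth factor (VEGF), which hepatocytes secrete, and is held quiescent by the angiopoietin and Tie receptor system. After partial hepatectomy the hepatocytes divide first and the sinusoids are rebuilt afterwards, and during inflammation endothelial cells display adhesion molecules that capture leukocytes.

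The table holds log2 values relative to 1 baseline per gene, so it shows how a gene differed between livers, while its absolute level is not given by these values. Of the 35 genes, 29 passed a filter on low levels, 3 had values but fell below it (Cldn5, Angpt2 and Robo4), and 3 were listed at 0 in all 4 libraries (Flt1, Sele and Wnt2). A listed 0 gives no level, since Hprt1, a gene of general use, was also listed at 0 in every library. Of all genes, 9683 passed the same filter, and all 16 hepatocyte markers looked up were among them. The size factors of the libraries lay between 0.956 and 1.04, so their relative depths were close. Because each group is a single library, no difference has a replicate check, no p-value is given, and a difference of 2-fold or more (1 on the log2 scale) is described by its size beside the share of all kept genes past the same fold. From counting error alone, the SD of a log2 difference is 0.51 where both libraries hold 16 reads, and 0.13 where they hold 16 times as many. In bulk liver RNA, fewer endothelial cells and less RNA per endothelial cell cannot be told apart.

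Promoter sequences are shown to display the letters that transcription factors known from endothelial genes can bind. The genes shown are those furthest from naive in their role group among kept genes with a promoter entry, by the median size of the 3 differences from naive. They come from the 5 role groups where that median was largest, which leaves out the Tie group. Flt4 (gene ID 114110), chosen the same way, has its single AGGAAG match outside the printed window, at 228 to 223 bases before the start, and is not printed. RefSeq promoters of build GRCr8 were matched by symbol for 22 of the 35 genes, and the 250 bases before the start were searched on both strands. AGGAAG, a core of sites for ETS factors such as ERG, was found in 12 of the 22 and in 29.5% of 33469 rat promoters. AGATAA, bound by GATA factors, was found in 3 of the 22 (Erg, Klf4 and Vegfa) and in 10.3% of promoters. GGGNTTTCC, a form of the NF-kB site, was found in 1 of the 22, Vcam1, and in 1.35% of promoters. A match describes letters and is not evidence of binding, and no match says only that the letters are not in this window. The 150 bases before the start are printed with matched letters in capitals. Clec4g is on the minus strand at chr12:6582914-6583063, Vcam1 on the minus strand at chr2:206742784-206742933, Egfl7 on the plus strand at chr3:29805481-29805630 and Erg on the minus strand at chr11:48251567-48251716.
Clec4g: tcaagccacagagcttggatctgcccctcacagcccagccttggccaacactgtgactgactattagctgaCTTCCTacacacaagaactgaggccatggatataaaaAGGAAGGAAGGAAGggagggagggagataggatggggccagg
Vcam1: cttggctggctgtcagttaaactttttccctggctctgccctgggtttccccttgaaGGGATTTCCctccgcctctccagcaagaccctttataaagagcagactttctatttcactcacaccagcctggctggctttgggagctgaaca
Egfl7: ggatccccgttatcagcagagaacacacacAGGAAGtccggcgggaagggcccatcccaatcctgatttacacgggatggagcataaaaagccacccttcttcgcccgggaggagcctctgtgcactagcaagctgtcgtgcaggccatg
Erg: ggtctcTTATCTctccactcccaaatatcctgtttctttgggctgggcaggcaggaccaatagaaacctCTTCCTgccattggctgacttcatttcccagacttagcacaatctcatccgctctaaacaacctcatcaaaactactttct
In Clec4g the capitals are 4 matches to AGGAAG, of which 3 overlap in a short repeat close to the start. In Vcam1 they are the NF-kB letters, from 93 to 85 bases before the start. In Egfl7 they are 1 AGGAAG match, and in Erg 1 GATA and 1 ETS match, both on the opposite strand.

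Endothelial genes were mostly higher after hepatectomy than in the naive liver. In the saline liver 6 of the 29 kept genes were at least 2-fold higher, against 6.01% of all kept genes, and none was at least 2-fold lower, against 3.78%. The siRNC liver had 2 genes at least 2-fold higher, a share near the background of 6.24%, and none at least 2-fold lower (3.44%). The miR-27b liver had 10 higher (8.43%) and none lower (3.93%). Sox17, counted in the saline and miR-27b livers, passed the filter only with these 2 libraries, in which it is high. Cdh5, Vwf, Lyve1 and Esam were kept because the saline library was classed as holding at least 16 reads. For Clec4g that library was miR-27b and for Vcam1 siRNC. Each of these genes was lower in naive, which may thus hold fewer than 16 reads. Whether they pass the filter without the higher libraries was not tested. The median log2 difference from naive over the 29 genes was 0.49 in the saline, 0.13 in the siRNC liver and 0.67 in the miR-27b liver, where the medians over all kept genes were -0.01, -0.004 and -0.03. Markers of Kupffer cells and other macrophages were also above naive, with medians of 1.27, 1.06 and 1.47 in these livers, and their part in the endothelial values was not tested. The naive library is shared by these 3 comparisons, so a gene low in that library alone counts in each of them. With a pseudocount of 5, added after setting every gene that lacks recovered reads to the lowest value of its level class, the counts of 6, 2 and 10 became 2, 0 and 5. Under a stricter filter, which 8 of the genes passed, they became 0, 0 and 2. At a threshold of 1.5-fold, 13 genes were higher and 1 lower in the saline liver (background 13.4% and 10.7%), 7 higher and 0 lower in the siRNC liver (13.3% and 9.85%), and 16 higher and 1 lower in the miR-27b liver (15.1% and 12.3%).

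The order of the livers was similar for many of the genes. The naive liver was the lowest of the 4 for 18 of 29 genes, against 29.9% of all kept genes. Among the 3 hepatectomised livers, the siRNC liver was the lowest for 22 of 29, against 34.2% of all kept genes. The miR-27b liver was the highest of all for 16 of 29, against 24.9%, and the saline liver for 9, against 21.5%. Of the 29, only Kdr and Vegfa were highest in the naive liver (32.3% of all kept genes) and only Gata4 and Nrp2 in the siRNC liver (21.3%). In all 3 hepatectomised livers, 6 genes were at least 1.5-fold above naive (Cdh5, Flt4, Clec4g, Lyve1, Sox18 and Vcam1; background 7.68%) and none was at least 2-fold below (0.991%). These counts share the libraries and the genes share a cell type, so they are not independent of each other.

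**Figure D1:**
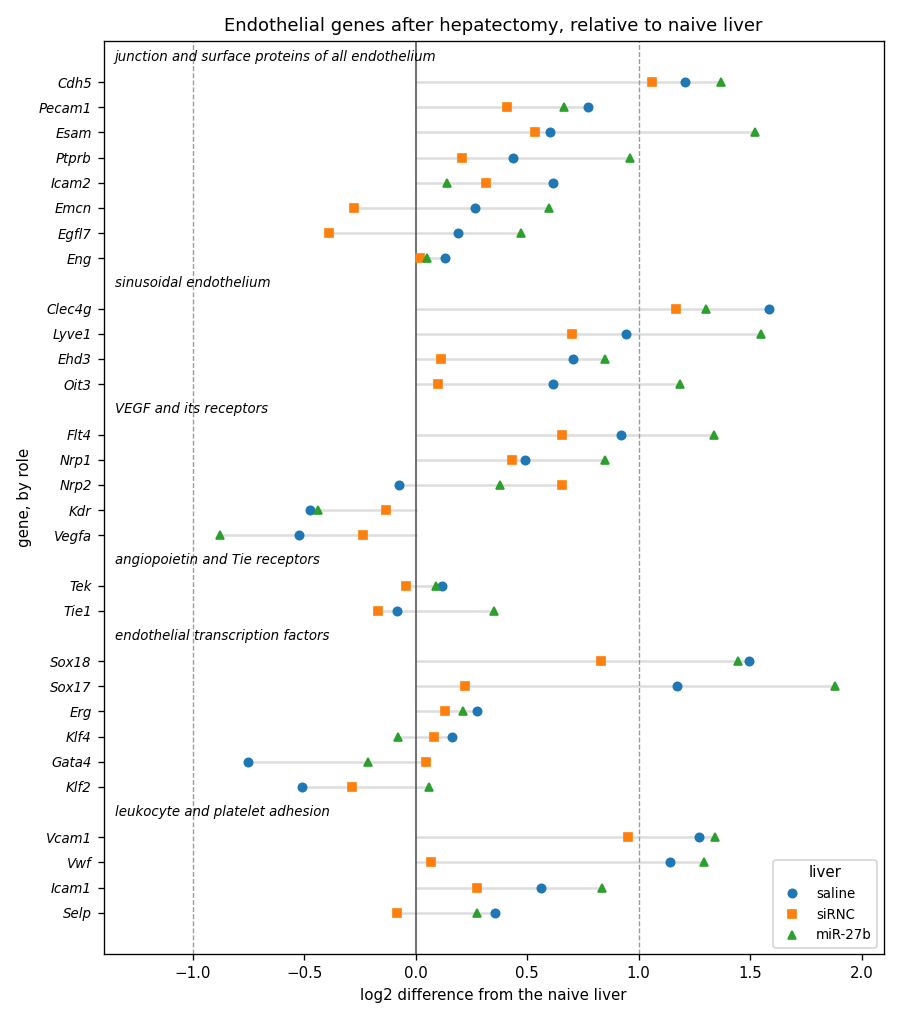
Log2 difference from the naive liver (horizontal axis) of the 29 kept endothelial genes, grouped by role (vertical axis), with 1 point per hepatectomised liver; the solid line is naive and dashed lines mark 2-fold. Most points lie to the right of naive, Cdh5 and Clec4g lie past 2-fold in all 3 livers, and Vegfa and Kdr lie to the left in all 3.

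Markers of the sinusoidal endothelium were higher than naive in each hepatectomised liver for all 4 kept genes. Of all 9683 kept genes, 4743 were above naive in the saline, 4799 in the siRNC liver and 4616 in the miR-27b liver. The median log2 difference of the 4 sinusoidal genes from naive was 0.83 in the saline, 0.41 in the siRNC liver and 1.24 in the miR-27b liver. Clec4g (gene ID 689004), which encodes the lectin LSECtin of sinusoidal cells, differed from naive by 1.58 in the saline, 1.17 in the siRNC liver and 1.30 in the miR-27b liver on the log2 scale. It is thus 1 of 2 genes past 2-fold in all 3 livers, a pattern of 3.6% of all kept genes, and the naive library stands apart from the other 3. With a pseudocount of 5 Clec4g was at 1.09, 0.77 and 0.87, past 2-fold in the saline liver only. Lyve1 (gene ID 293186), a hyaluronan receptor of sinusoidal and lymphatic endothelium, differed from naive by 0.95 in the saline, 0.70 in the siRNC liver and 1.55 in the miR-27b liver. Oit3 (gene ID 294559), a secreted protein that marks sinusoidal cells, was at 0.61, 0.10 and 1.19 in the same order. Ehd3, a membrane-trafficking protein enriched in sinusoidal endothelium, was at 0.70, 0.11 and 0.85. For Oit3 and Ehd3 the siRNC liver lay close to naive and the other 2 livers above both. Wnt2, a Wnt ligand of sinusoidal cells, was listed at 0 in all 4 libraries.

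Junction and surface proteins of all endothelium were above naive for 8 of 8 kept genes in the saline and miR-27b livers and for 6 of 8 in the siRNC liver. The background is 4743 (saline), 4799 (siRNC) and 4616 (miR-27b) of all 9683 kept genes above naive. Cdh5 (gene ID 307618), which encodes VE-cadherin of the adherens junction, differed from naive by 1.21 in the saline, 1.06 in the siRNC liver and 1.37 in the miR-27b liver, the other gene past 2-fold in all 3. With a pseudocount of 5 Cdh5 was at 0.82, 0.71 and 0.94, under 2-fold in each. Esam (gene ID 300519), an adhesion molecule of the tight junction, was at 0.60 in the saline, 0.54 in the siRNC liver and 1.52 in the miR-27b liver, so the miR-27b library stood apart from the others. Pecam1, the adhesion molecule CD31, was at 0.77, 0.41 and 0.67 in that order. Ptprb, the phosphatase VE-PTP that acts on VE-cadherin and the receptor TIE2, was at 0.44, 0.21 and 0.96. None of these differences of Pecam1 and Ptprb reached 2-fold.

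In the same group Emcn, a sialomucin of capillaries and veins, was 0.27 above naive in the saline and 0.60 above in the miR-27b liver, with -0.28 in the siRNC liver. Egfl7, a protein secreted by endothelial cells, had the same shape, with 0.19 and 0.47 above naive in the saline and miR-27b livers and -0.39 in the siRNC liver. The siRNC library was the lowest of the 4 for both. Icam2, a constitutive ligand of leukocyte integrins, was at 0.62 (saline), 0.31 (siRNC) and 0.14 (miR-27b). Eng, the TGF beta coreceptor endoglin, stayed within 0.13 of naive in every liver. Robo4, a guidance receptor that stabilises vessels, was below the filter and its level could not be settled. Its differences from naive were 1.57, 0.64 and 1.77. Cldn5, a claudin of tight junctions, had 5 reads in the naive, 4 in the saline and 2 in the miR-27b library and was at the floor of 1 normalized read in the siRNC library, which is too few for a fold.

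VEGF and its receptors did not share a direction. Vegfa (gene ID 83785), the ligand, differed from naive by -0.52 in the saline, -0.24 in the siRNC liver and -0.88 in the miR-27b liver on the log2 scale, and the naive library was the highest. Kdr (gene ID 25589), the main signalling receptor of VEGF-A (VEGFR2), was at -0.47, -0.14 and -0.44, also with the naive library on top. Flt4, which encodes VEGFR3, the receptor of VEGF-C, went the other way, at 0.92 in the saline, 0.66 in the siRNC liver and 1.34 in the miR-27b liver. The coreceptor Nrp1 was at 0.49, 0.43 and 0.85 and was lowest in naive. Its relative Nrp2 was at -0.07, 0.65 and 0.38, with the siRNC library the highest, which set it apart from most of the genes described here. Flt1 (VEGFR1) was listed at 0 in all 4 libraries.

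The Tie receptors varied little. Tek (gene ID 89804), which encodes the angiopoietin receptor TIE2, had 71 reads in the naive, 82 in the saline, 71 in the siRNC library and 74 in the miR-27b library. Its log2 difference between the saline and naive livers was 0.12, with an exact conditional binomial 95% interval of -0.36 to 0.60, and between the miR-27b and naive livers 0.09 (-0.40 to 0.58). These intervals cover counting error only, and neither reaches 2-fold. Tie1, the second receptor, was at -0.08, -0.17 and 0.35 relative to naive. Angpt2, the ligand stored in endothelial cells that antagonises TIE2, had 1 read in the naive, 4 in the saline and 5 in the miR-27b library and was at the floor in the siRNC library. No fold is given for numbers this low.

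Among the transcription factors the SOXF genes were furthest from naive, at low read numbers. Sox18 (gene ID 311723) had 6 reads in the naive, 18 in the saline, 11 in the siRNC library and 16 in the miR-27b library. The saline liver differed from naive by 1.496 (95% interval 0.10 to 3.12), the miR-27b liver by 1.45 (0.02 to 3.09) and the siRNC liver by 0.83 (-0.73 to 2.55), so the last interval includes 0. Sox17 (gene ID 312936), a factor of arterial identity, had 5 reads in the naive, 12 in the saline, 6 in the siRNC library and 18 in the miR-27b library. Its naive and siRNC reads were alike and its miR-27b reads were the highest, with a difference of 1.88 from naive (0.40 to 3.66) and of 1.66 from siRNC (0.26 to 3.28). The difference of Sox17 between saline and naive was 1.17, with an interval of -0.43 to 3.03. The mean of Sox17 was 10.4 normalized reads against a filter minimum of 10, and it was 7.54 without the miR-27b library and 9.97 without the saline library, so its place among the kept genes depends on them.

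The other factors stayed under 2-fold. Erg, the ETS factor that maintains endothelial identity, was at 0.28 (saline), 0.13 (siRNC) and 0.21 (miR-27b) relative to naive. Gata4, which directs sinusoidal differentiation and is also present in stellate cells, was at -0.75, 0.05 and -0.21, with the saline library the lowest. The flow-responsive factor Klf2 was at -0.51, -0.29 and 0.06, again with saline the lowest. Klf4, its relative, had 14.7 reads in the naive, 17.5 in the saline, 16 in the siRNC library and 13.6 in the miR-27b library. Its recovered reads are fractions because they came out in steps smaller than 1 read. Each of its counting intervals against naive, from reads rounded to whole numbers, includes 0, such as -1.06 to 1.17 for siRNC.

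**Figure D2:**
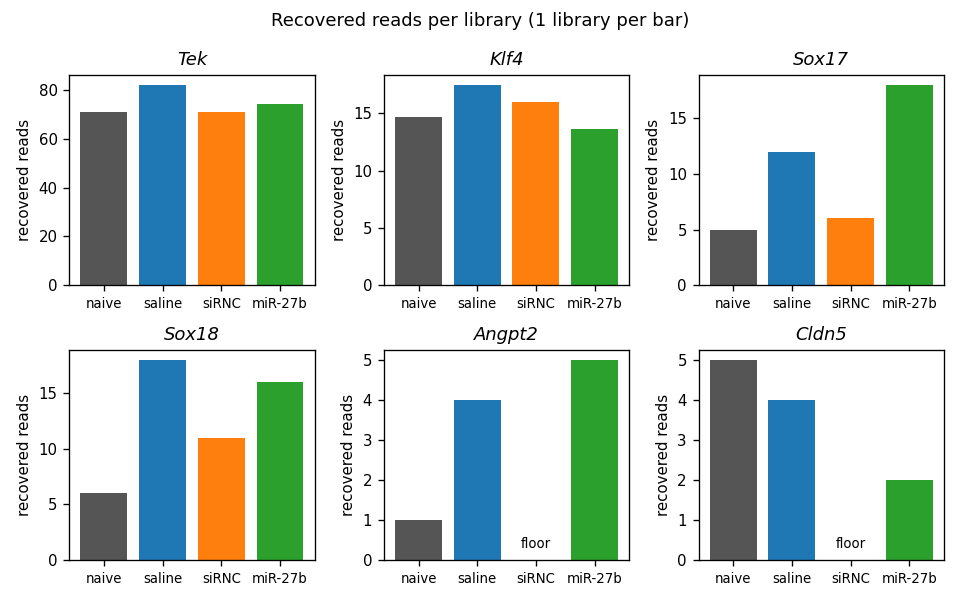
Recovered reads per library (vertical axis, linear, with its own scale in each panel) for the 6 endothelial genes whose reads could be recovered, with 1 bar per library; "floor" marks a library at or below 1 normalized read. Tek lies between 71 and 82 reads in all 4 livers, and Sox17 has 5 and 6 reads in the naive and siRNC libraries against 12 and 18 in the saline and miR-27b libraries.

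Adhesion genes were above naive in the saline and miR-27b livers for 4 of 4 kept genes and in the siRNC liver for 3 of 4. The background is 4743 (saline), 4799 (siRNC) and 4616 (miR-27b) of all 9683 kept genes above naive. Vcam1 (gene ID 25361), whose product binds leukocyte integrin VLA-4 and whose promoter holds the NF-kB letters shown above, was at 1.27 in the saline, 0.95 in the siRNC liver and 1.34 in the miR-27b liver. Some macrophages also make Vcam1, as they do Lyve1. Icam1, an inducible ligand of leukocyte integrins, was at 0.56, 0.28 and 0.84. Vwf (gene ID 116669), the clotting factor carrier that tethers platelets, was at 1.14 in the saline, 0.07 in the siRNC liver and 1.30 in the miR-27b liver, so its naive and siRNC libraries lay together, below the other 2. With a pseudocount of 5 Vwf was at 0.78 in the saline and 0.90 in the miR-27b liver, and Vcam1 at 0.91 and 0.97, all under 2-fold. Selp, P-selectin of endothelium and platelets, was at 0.36, -0.08 and 0.28, and Sele, E-selectin, was listed at 0 throughout. Of 9 platelet and megakaryocyte genes looked up, 6 were listed at 0 in all 4 libraries, among them Itga2b, and 1 was kept, Gp5, at 0.35, 0.50 and 0.30.

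The siRNC liver was compared with the saline liver as these livers differ in whether cells or saline were given. Of the 29 genes, 24 were lower in the siRNC than in the saline liver, against 50.8% of all kept genes, with a median log2 difference of -0.24. The sizes were small: none was at least 2-fold higher (background 2.42%) and 1 was at least 2-fold lower (1.81%), Vwf at -1.08. With a pseudocount of 5 Vwf was at -0.74 and the count was 0. Sox17 followed at -0.95 (95% interval -2.65 to 0.57) and Sox18 at -0.66 (-1.89 to 0.50), both with intervals that include 0. All 8 junction and surface genes, all 4 sinusoidal genes and all 4 adhesion genes were lower in the siRNC liver. At 1.5-fold, 2 genes were higher (background 7.91%) and 4 lower (6.97%). The exceptions to the lower values were 5 genes, Gata4 (0.80), Nrp2 (0.73), Kdr (0.34), Vegfa (0.29) and Klf2 (0.22). A wider list of other vascular genes, described further on, did not share this direction. Of its 60 kept genes, 27 were lower and 33 higher in the siRNC than in the saline liver, with a median log2 difference of 0.08.

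The miR-27b liver was next set against the siRNC liver, as the labels of these livers differ only in what the cells carried. It was higher for 23 of 29 genes, against 50.4% of all kept genes, with a median log2 difference of 0.39. At least 2-fold higher were 3 genes (background 2.94%), Sox17 at 1.66, Vwf at 1.23 and Oit3 at 1.09, and none was at least 2-fold lower (2.45%). Sox17 passed the filter only with the miR-27b library included. Under the stricter filter the count was 1, Oit3, and with a pseudocount of 5 Vwf was at 0.86. Close to 2-fold were Esam (0.99), Emcn (0.88), Egfl7 (0.86) and Lyve1 (0.85). At 1.5-fold, 11 genes were higher (8.66%) and 1 was lower (8.47%), Vegfa, at -0.64. Kdr followed at -0.30. Both comparisons use the siRNC library, as numerator in one and denominator in the other, so a gene low in that library alone appears in both.

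Against the saline liver the miR-27b liver was higher for 19 of 29 genes, against 50% of all kept genes, and none was at least 2-fold higher (background 2.5%) or lower (1.94%). At 1.5-fold, 3 were higher (8.15%) and 0 lower (7.32%). The median log2 difference was 0.16. Esam was furthest up at 0.92, Sox17 was at 0.71 (95% interval -0.43 to 1.89) and Lyve1 was at 0.60. Icam2 was furthest down at -0.48. Vwf, which differed from siRNC in both livers, was 0.15 apart between the miR-27b and saline livers.

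**Figure D3:**
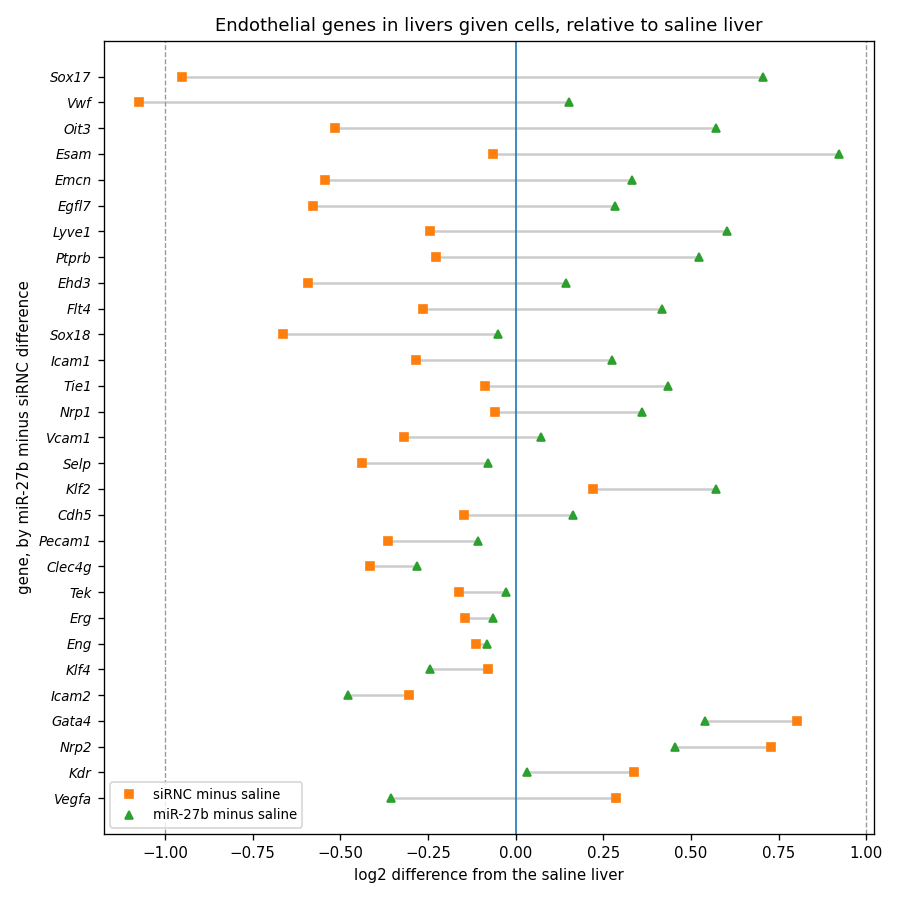
Log2 difference from the saline liver (horizontal axis) of the 29 kept endothelial genes (vertical axis, ordered by the miR-27b minus siRNC difference), with squares for the siRNC liver and triangles for the miR-27b liver; dashed lines mark 2-fold. The squares lie left of saline for 24 genes, and the triangles lie right of the squares for 23.

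Other genes of the vasculature, from a list of ligands, receptors, Notch and BMP components and further endothelial markers, are given for comparison. Of 92 rows, 60 were kept and 7 were listed at 0, among them Stab1. Against naive, 4 of the 60 were at least 2-fold higher and 3 lower in the saline liver, 7 higher and 1 lower in the siRNC liver, and 13 higher and 2 lower in the miR-27b liver. The background shares of higher and lower genes are 6.01% and 3.78% for saline, 6.24% and 3.44% for siRNC and 8.43% and 3.93% for miR-27b, so the saline counts lie near them. The medians were 0.35, 0.35 and 0.59 over the 60 genes. Plvap, which forms the diaphragms of endothelial openings, was past 2-fold in all 3 livers at 1.09, 1.08 and 1.39, as was the endothelin receptor Ednrb at 1.16 in the saline and 1.24 in the siRNC liver and higher still in the miR-27b liver. The Notch ligand gene Dll1 was past 2-fold below naive in all 3, at -1.02, -1.12 and -1.08. Sinusoidal scavenger receptors of this list stayed under 2-fold, with Stab2 at 0.44, 0.52 and 0.78 and Mrc1 at 0.69, 0.48 and 0.70.

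Between hepatectomised livers a few of these vascular genes were past 2-fold. Of the 60, 2 were higher and 1 lower in siRNC against saline (background 2.42% and 1.81%). In miR-27b, 3 were higher and 2 lower against siRNC (2.94% and 2.45%), and 4 higher and 1 lower against saline (2.5% and 1.94%). Cav1, the caveolar coat protein, was 1.61 above saline and 1.44 above siRNC in the miR-27b liver. Cxcr7, a decoy receptor of the chemokine CXCL12, was 1.20 and 1.15 above them, and the surface protein gene Tm4sf1 was 1.02 above siRNC. Reads were few for Cav1, with 10, 11, 12 and 31 in the naive, saline, siRNC and miR-27b libraries. Tm4sf1 had 12, 24, 13 and 25 reads in that order. Notch4, an endothelial Notch receptor, was above saline in both livers given cells, by 1.27 in the siRNC liver and 1.58 in the miR-27b liver. Hhex, a factor of both hepatocytes and endothelium, was 1.15 above saline in the siRNC liver and at -1.23 in the miR-27b relative to the siRNC liver. At the low end were Acvrl1 at -1.01 in siRNC against saline, Lyl1 at -1.49 in miR-27b against siRNC, and Bmp4 at -1.07 in miR-27b against saline.

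Markers of other liver cells also differed from naive in these livers. Of 16 kept genes of Kupffer cells and macrophages, 14 were at least 2-fold above naive in the saline, 10 in the siRNC liver and 15 in the miR-27b liver (background 6.01%, 6.24% and 8.43%), with medians of 1.27, 1.06 and 1.47, above those of the endothelial genes. Marco, a scavenger receptor, was furthest up, between 2.01 and 2.65, next came Cd163 at 1.96 in the saline and Lyz2 at 1.95 and 2.24 in the other 2 livers, and Timd4 was listed at 0. By its medians the order of the livers in this list, lowest in siRNC and highest in miR-27b among the hepatectomised ones, was that of the endothelial genes. Hepatocyte markers and cell cycle genes, given below, had the same order by their medians. Of 16 hepatocyte markers, 12 were lower in siRNC than in saline (50.8% of all kept genes). In miR-27b 13 of them were higher than in siRNC (50.4%). Stellate cell and fibroblast genes had another order by their medians, which were 0.58, 1.03 and 0.73 over 17 genes. Col1a1 had reads of 48 in naive, 171 in saline, 1120 in siRNC and 188 in miR-27b. Also furthest up among them were Lum at 4.32 in siRNC and Tagln and Acta2 at 2.95 and 2.92 in miR-27b. Lum had 4 reads in naive, 3 in saline, 82 in siRNC and 4 in miR-27b. It therefore passed the filter only with the siRNC library, in which it is high. Between the livers given cells this list was mixed, with 9 of 17 genes higher in miR-27b than in siRNC and a median difference of 0.03. Col1a1, Col1a2, Dcn and Lum were at least 2-fold lower in miR-27b (background 2.45%), Lum again only through its siRNC reads. Hepatocyte markers had medians of 0.02, -0.12 and 0.21 over 16 genes. In the miR-27b liver 3 of them, Hpx, Fgb and Fgg, were at least 2-fold above naive (background 8.43%), and none in the other 2 livers. Hpx was at 0.80, 0.84 and 1.46 and Fgb at 0.91, 0.70 and 1.41. Below naive were 7 of the 16 in the saline, 9 in the siRNC liver and 5 in the miR-27b liver, none by 2-fold. The background is 4934, 4883 and 5064 of all 9683 kept genes below naive in these livers. Among the hepatocyte markers below naive was Hnf4a, at -0.43, -0.76 and -0.71. Lymphocyte and neutrophil genes had medians of 1.24, 1.54 and 1.56 over 5 kept genes of 18, with S100a9 at 2.79, 3.96 and 5.19. S100a9, a calcium-binding protein of neutrophils, set the upper end of that list in every liver. Red cell genes had medians of 2.35, 1.90 and 1.996 over 6 of 11, with Slc4a1 at 3.97, 3.80 and 4.15 and Alas2 at 3.12, 2.67 and 3.08. Slc4a1 had 3 reads in the naive library against 50, 43 and 52, so its folds rest on few naive reads. Hbq1 differed from the rest of this list, at 0.05, -1.52 and -0.20. Cell cycle genes were below naive, with medians of -1.54, -2.26 and -0.56 over 7 kept genes of 18 and Cdc20 at -3.15, -2.42 and -1.26. Ccna2, at -3.51 in siRNC, had 26.5 reads in naive, 4 in saline, 2.4 in siRNC and 16 in miR-27b. It passed the filter only with the naive library, in which it is high. Slc4a1 is the anion exchanger of red cells, Alas2 their first enzyme of haem synthesis, and Cdc20 an activator of mitotic exit. As the table holds no levels, no summed level of a list is given, and the part of these cell types in the endothelial values was not tested.

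**Figure D4:**
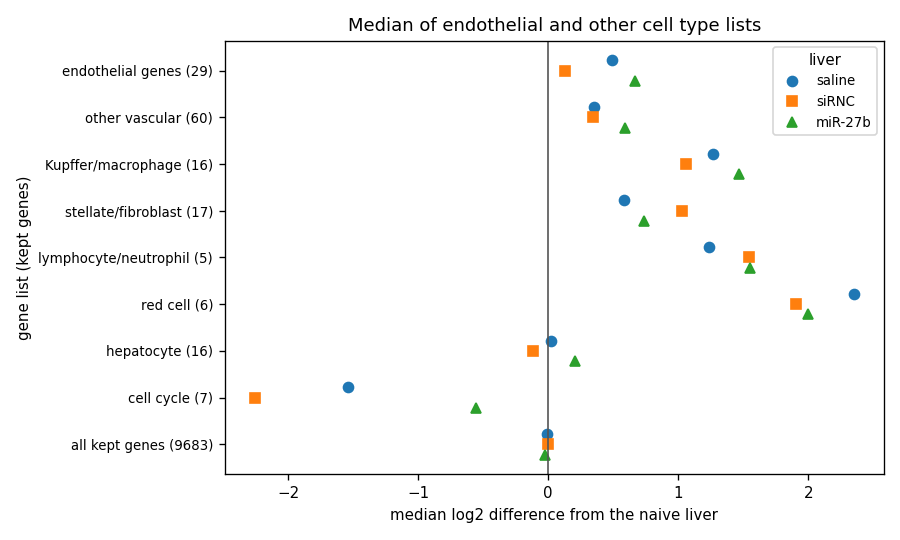
Median log2 difference from the naive liver (horizontal axis) of each gene list (vertical axis, number of kept genes in brackets), with 1 point per hepatectomised liver. The endothelial medians lie between 0.13 and 0.67, below the Kupffer and macrophage medians of 1.06 to 1.47 and above the median of all kept genes near 0.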

How the data were processed

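Per the labels, poly(A) mRNA of liver was made into TruSeq libraries and read on a MiSeq. The submitters' processing notes name DESeq and rn5, and no source used here gives the aligner or counter. The deposited values, named normalized by the authors, are log2 values relative to a baseline of each gene, and of 12874 genes not at 0 throughout, 77.3% have a library at exactly 0. Differences of these values were used as log2 folds, with no test.

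Reads were recovered from the ratios of the 4 libraries, in steps of 1 read or 1/101 read (up to 200 reads in the lowest library, posterior above 0.9), for 3408 genes (26.5%). For other genes a level class, at least 16 or at least 256 reads at the baseline (probability at least 0.5), was read from how the stored numbers are rounded in binary. The filter kept 1476 genes on recovered reads (mean 10 or more after normalization) and 8207 by class. Of the 29 kept endothelial genes, 4 had recovered reads and 18 were in the class of at least 16 but not 256. For the 7 endothelial genes in the class of at least 256, its probability was 0.70 or more. The stricter filter needed a mean of at least 50 or that class. The recovery was tested on simulated data in which the baseline was always the library next to the lowest. In the deposited values it is the library next to the highest for some genes, among them Cdh5, Vwf and Lyve1. The level classes were not tested in that setting. The linear pseudocount of 5 was an alternative only. Groups were taken from the source labels, and columns from sample titles. The genes, lists and rules were chosen with earlier results of these data known. Genes at least 2-fold apart in any of 6 comparisons were named, with the others by role. Other vascular genes were named where past 2-fold in all 3 livers or among the 3 furthest each way between hepatectomised livers, and Stab1, Stab2 and Mrc1 were added after their values were seen. For lists of other cells, up to 3 of the members furthest from 0 are given. Hnf4a and Hbq1, which went the other way in their lists, were added after their values were seen. Counting without strand information, if used, cannot part overlapping genes. Python 3.11.15, numpy 2.4.6, pandas 2.3.3 and scipy 1.17.1 were used.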

Additional observations from a re-analysis of the deposited data

How the results depend on the processing

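With 1 library per group no library can be left out and no paired analysis was possible because each group has 1 sample. Centring on the median of all kept genes moved none of the 174 log2 differences of single genes past 0.13 and no count or median, and using the mean in place of the median shifted no summary by 0.13 or more. With a pseudocount of 5, 54 of the 174 differences moved by 0.13 or more, 13 fell below 2-fold in size and none changed sign. The counts of genes at least 2-fold higher were then 2 for saline, 0 for siRNC and 5 for miR-27b against naive, that of genes lower in siRNC against saline was 0, and the medians against naive were 0.36 for saline and 0.48 for miR-27b. Under the stricter filter, which leaves 8 genes, the counts higher were 0 for saline, 0 for siRNC and 2 for miR-27b against naive and 1 for miR-27b against siRNC, the count lower for siRNC against saline was 0, and the medians against naive were 0.32 for saline, 0.03 for siRNC (0.13 before) and 0.31 for miR-27b. The siRNC mean was 0.25. Without a filter (32 genes), 1 gene was at least 2-fold lower in siRNC and 1 in miR-27b against naive, 3 were lower in siRNC against saline and 6 higher in miR-27b against siRNC; these added folds rest on Cldn5, Angpt2 and Robo4. With a threshold of 1.5-fold, 13, 7 and 16 genes were higher than naive in saline, siRNC and miR-27b, respectively (background 13.4%, 13.3% and 15.1%), and 1 was lower in saline and 1 in miR-27b. At that threshold siRNC against saline had 2 higher and 4 lower, miR-27b against siRNC 11 higher and 1 lower, and miR-27b against saline 3 higher. Total reads per library are not known from these values, so depth limits every gene by its class alone.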
